A study of Mus musculus with 4 samples.

Results

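A set of 10 genes of hippocampal interneurons was followed through sorted neuronal nuclei of Fasn-R1812W and WT mice. They comprise 7 genes of neuropeptides or a peptide-binding protein, namely Sst, Npy, Cort, Vip, Cck, Tac1 and Crhbp, and 3 genes of calcium-binding proteins, Pvalb, Calb1 and Calb2. They were taken by symbol from the 25567 genes of the count tables, and all 10 had a row. The study sorted hippocampal nuclei of mice aged 8.5 months with an antibody to NeuN, a protein of neuronal nuclei, and sequenced each nucleus in its own well with Smart-seq2, in which RNA is copied along its full length in a plate. The Fasn-R1812W mice carried an exchanged amino acid in fatty acid synthase, which builds long-chain fatty acids, and the WT mice did not. There was 1 NeuN+ library per genotype, and the labels do not give the number of animals behind it or whether the substitution was present on 1 or both alleles. No difference between the genotypes therefore has a replicate check, no test could be run, and each interval below covers counting error only.

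Interneurons are the inhibitory neurons of the hippocampus, and they make the transmitter GABA with the enzymes encoded by Gad1 and Gad2. Their classes are told apart by the peptides and calcium-binding proteins they make: somatostatin cells mostly contact dendrites of pyramidal cells, parvalbumin and cholecystokinin basket cells contact cell bodies, and many cells with vasoactive intestinal peptide contact other interneurons. Several of these genes are also used by glutamatergic neurons, such as Calb1 in dentate granule cells, Cck in pyramidal cells and Calb2 in mossy cells.

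Gene starts are shown for the peptide genes on which the co-detection results turn. RefSeq windows running from 250 bases before to 50 bases after the start matched 8 of the 10 genes, all but Calb1 and Calb2. Only the 250 bases before the start were searched, in these and in all other windows. Each line gives the 120 bases before the start in build GRCm38.p6. Capitals mark the cAMP response element TGACGTCA or, where the whole element is not there, its core TGACG, which reads CGTCA on the other strand.
Sst, chr16:23890845-23890964, minus strand: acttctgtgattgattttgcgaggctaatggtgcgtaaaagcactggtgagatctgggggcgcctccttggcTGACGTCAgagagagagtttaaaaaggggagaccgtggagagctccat
Cort, chr4:149126764-149126883, minus strand: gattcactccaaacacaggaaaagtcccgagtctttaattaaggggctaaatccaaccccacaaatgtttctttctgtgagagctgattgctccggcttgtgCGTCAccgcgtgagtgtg
Crhbp, chr13:95444832-95444951, minus strand: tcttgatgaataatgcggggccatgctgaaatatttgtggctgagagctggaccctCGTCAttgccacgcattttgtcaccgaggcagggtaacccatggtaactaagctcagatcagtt
Tac1, chr6:7554941-7555060, plus strand: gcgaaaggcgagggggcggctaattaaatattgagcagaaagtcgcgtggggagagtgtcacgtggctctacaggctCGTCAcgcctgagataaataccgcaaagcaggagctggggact
Vip, chr10:5639098-5639217, plus strand: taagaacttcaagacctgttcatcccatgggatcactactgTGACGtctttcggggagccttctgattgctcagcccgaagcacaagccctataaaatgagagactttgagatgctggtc
Npy, chr6:49822590-49822709, plus strand: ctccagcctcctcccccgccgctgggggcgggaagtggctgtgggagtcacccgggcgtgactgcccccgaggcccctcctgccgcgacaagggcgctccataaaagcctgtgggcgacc
The whole element, the palindrome known from the somatostatin promoter as a binding site of the factor CREB, was found 48 bases before the start of Sst and in no other window of these genes. It was present in 508 of 32851 RefSeq windows of the same length (1.55%). The core, searched on both strands and counted also inside the whole element, was found for 6 of the 8 genes (Sst, Cort, Crhbp, Tac1, Vip and Cck). That was 6 of the 9 windows of these 8 genes, beside 17.8% of all windows. The core was not found in the 250 bases before the starts of Npy and Pvalb. These matches describe letters and not binding. In the GENCODE annotation of GRCm38 the genes without a line above lie at chr9:121489824-121495694 on the minus strand (Cck), chr15:78191114-78206400 on the minus strand (Pvalb), chr4:15881264-15908064 on the plus strand (Calb1) and chr8:110137502-110168210 on the minus strand (Calb2).

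Wells were kept from 50000 reads and 1000 detected genes upward, 301 in the Fasn-R1812W library and 314 in the WT library, of 384 each. Gad wells, those with Gad1 or Gad2 at 10 or more reads, numbered 82 in the Fasn-R1812W library (27.2% of kept wells) and 114 in the WT library (36.3%). The difference was -9.06 percentage points (Newcombe interval -16.3 to -1.70). Many of these wells also carried Slc17a7, the vesicular glutamate transporter of excitatory neurons: 39 of 82 Fasn-R1812W and 70 of 114 WT Gad wells had it at 10 or more reads, and 25 and 46 of those had the granule cell marker set. Without them 43 Fasn-R1812W and 44 WT wells remained, 14.3% and 14.01% of kept wells, and the difference turned to 0.273 points (-5.26 to 5.84). Slc32a1, the vesicular GABA transporter, reached 10 reads in 20 and 24 Gad wells, of which 19 and 22 were among those without Slc17a7, and in 0 of 219 and 0 of 200 other wells, which allows shares of up to 1.37% and 1.5%. The Gad rule thus took in glutamatergic-marker wells, so levels, pairs, marker genes and ratios below are followed by values without Slc17a7 wells where these differ. Median reads per Gad well were 189662 in Fasn-R1812W and 210932 in WT.

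Most of the peptide genes and Pvalb followed the Gad wells, whereas Cck and Calb1 did not and Calb2 differed between the libraries. Summed over the wells of a group, Sst stood at 2127 CPM (scaled to 1000000 nuclear-encoded reads) in Fasn-R1812W Gad wells and at 40.5 CPM in the other wells of that library, and at 1410 CPM in WT Gad wells, against 32.96 CPM in WT other wells. Sst, Npy, Cort, Vip, Crhbp and Pvalb, 6 of the 10 members, were at least 2-fold higher in Gad wells than in other wells of both libraries. The same held for 2.11% of 11399 genes. Their log2 ratios of Gad over other wells, taken with 1 CPM added to both levels, ran between 1.83 and 6.10 in the Fasn-R1812W library and between 2.31 and 5.81 in the WT library. The highest were those of Crhbp, whose product binds and sequesters corticotropin-releasing hormone, at 6.10 in Fasn-R1812W, and of Vip at 5.81 in WT. Tac1, the precursor of substance P, passed in the Fasn-R1812W library alone, at 2.83, against 0.611 in WT. Once wells with Slc17a7 were left out of the Gad wells, Tac1 passed in both, at 3.68 in Fasn-R1812W and 2.07 in WT, and made 7 members, beside 4.94% of genes. Calb1 stood at 0.405 and 0.259 and Cck at -0.279 and -0.907 in the Fasn-R1812W and WT libraries, so that Cck was lower in Gad wells than outside them. Without Slc17a7 wells Calb1 turned to -0.866 and -1.06 and Cck to -0.733 and -1.40, both lower than in the other wells of each library. Calb2 stood at -0.930 in Fasn-R1812W and 0.953 in WT, and without Slc17a7 wells at -0.870 and 2.04. Its levels were low: 2.78 CPM in Fasn-R1812W Gad wells and 6.20 CPM in the other wells, where 1 well alone held 174 Calb2 reads (1036 CPM).

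**Figure D1:**
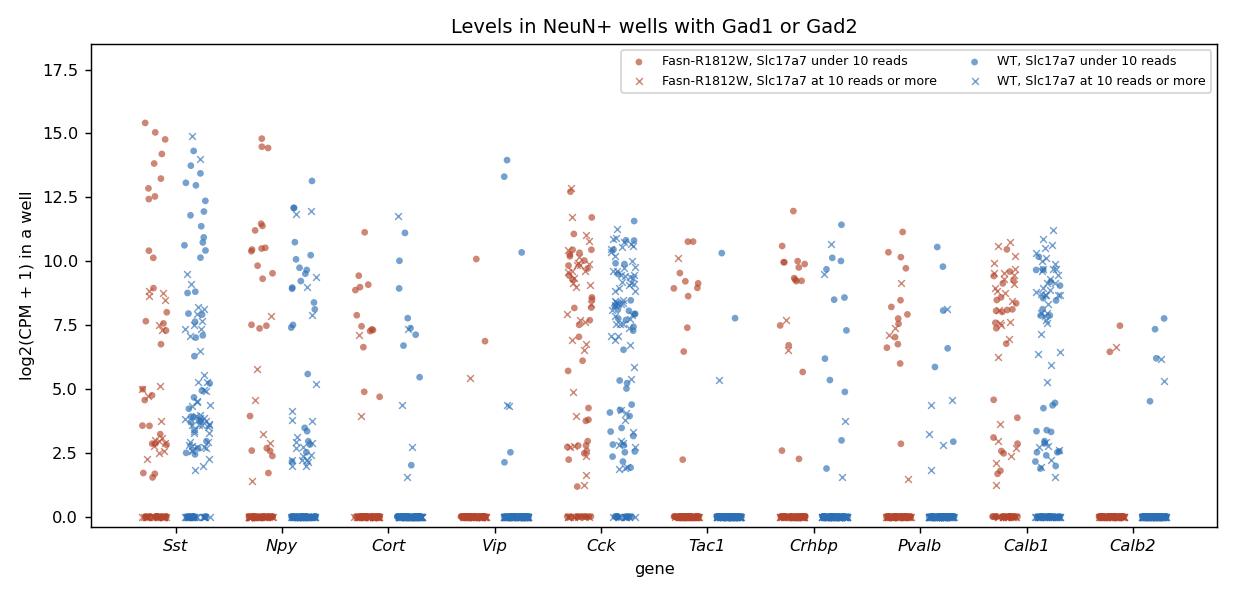
Level of each gene in each Gad well as log2(CPM + 1), with 82 Fasn-R1812W wells on the left and 114 WT wells on the right of each gene, and crosses for wells with Slc17a7 at 10 or more reads. The highest values belong to Sst and Npy, most wells hold no read of Vip, Tac1 or Calb2, and crosses are frequent for Cck and Calb1.

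The peptide genes were read deeply in a few wells. Over the wells with 10 or more reads, Sst ran from 25.5 to 43553 CPM with a median of 472 CPM in 24 Fasn-R1812W Gad wells, and from 29.5 to 30282 CPM with a median of 546 CPM in 35 WT Gad wells. The well with most Sst reads held 39.5% of the Sst reads of the Fasn-R1812W Gad wells and 25.3% of those of the WT Gad wells. Sst levels in both libraries thus spanned 3 orders of magnitude and overlapped nearly throughout. Npy, which encodes neuropeptide Y, an inhibitor of transmitter release, ran from 53.9 to 28405 CPM in 18 Fasn-R1812W wells, with a median of 1369 CPM. In 23 WT wells it ran from 35.2 to 9016 CPM, with a median of 668 CPM. Of its Gad well reads, 50.4% in Fasn-R1812W and 31.8% in WT lay in 1 well.

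Cort, the gene of cortistatin, a relative of somatostatin that binds the same receptors, reached 10 reads in 13 Fasn-R1812W and 9 WT Gad wells, at medians of 174 and 217 CPM. Crhbp did so in 14 and 10 wells, at medians of 753 and 766 CPM. Pvalb, a fast calcium buffer, was at 10 or more reads in 15 Fasn-R1812W wells between 62.7 and 2257 CPM and in 6 WT wells between 56.9 and 1499 CPM. Their medians were 240 CPM in Fasn-R1812W and 273 CPM in WT for Pvalb, and for all 3 genes the ranges of both libraries overlapped. Calb2, the gene of calretinin, was sparse at 3 Fasn-R1812W and 4 WT Gad wells, the highest at 215 CPM. Calbindin (Calb1) was at 10 or more reads in 34 and 43 Gad wells and Cck in 46 and 66, the most wells of any member. Divided by exon length, the pooled level of Sst in Gad wells was 2950 CPM per kilobase in Fasn-R1812W and 1956 in WT. Npy came next at 2218 and 713, then Cck at 612 and 332, while Tac1 and Calb2 were lowest in WT at 3.44 and 3.47 and Vip was lowest in Fasn-R1812W at 1.498, next to Calb2 at 1.59.

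Vip was carried by a handful of wells. In Fasn-R1812W it had 1083 and 41.4 CPM in 2 wells, against 15867, 10124 and 1295 CPM in 3 WT wells that held 99.9% of the WT Vip reads of Gad wells. The highest Fasn-R1812W well was thus below the lowest of the 3 WT wells. All 5 of these wells had 10 or more reads of Adarb2, a marker of interneurons born in the caudal ganglionic eminence, and all 5 had Prox1, a factor of those interneurons and of granule cells. The Fasn-R1812W well at 41.4 CPM of Vip also had 186 CPM of Slc17a7 and 33.1 CPM of Sst. Without Slc17a7 wells, 1 Fasn-R1812W and 3 WT Vip wells remained. Adarb2 stood at 3682, 4163 and 1315 CPM in the WT wells, in the order given for Vip. Other wells of the WT library that shared a plate index with the highest Vip well had a Vip read in 12 of 22, against 6 of 178 that shared none. None of the 22 reached 10 reads.

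Co-detection was counted over the 196 Gad wells of both libraries, with a gene taken as detected at 10 or more reads. Of the 45 pairs of members, 25 were found together in at least 5 wells and 8 in none. The median number of members per well was 2 in both libraries, and 11 of 82 Fasn-R1812W and 11 of 114 WT Gad wells held 4 or more.

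Cort and Crhbp were mostly found in wells with Sst and with each other, and Npy was found in more Sst wells than other wells when both libraries were pooled. Npy was detected in 26 of 59 Sst wells (44.1%, Clopper-Pearson interval 31.2 to 57.6) and in 10.9% (6.26 to 17.4) of the 137 Gad wells without Sst. The pair made up 8 of 24 Sst wells in Fasn-R1812W, where the difference from wells without Sst was 16.1 points (-3.20 to 37.5), and 18 of 35 in WT, where it was 45.1 points (27.5 to 61.1). Seen from Npy, 63.4% of its 41 wells had Sst. Cort was found with Sst in 16 of its 22 wells (72.7%), namely 8 of 13 in Fasn-R1812W and 8 of 9 in WT. Crhbp was present in 15 of 22 Cort wells (68.2%, 45.1 to 86.1), against 5.17% (2.39 to 9.59) of the 174 wells without Cort. Of its own 24 wells Crhbp shared 16 with Sst (66.7%). Seen from Sst, Cort and Crhbp were each in 16 of 59 wells (27.1%). Of the 68 wells with any of Sst, Cort and Crhbp, 41 had exactly 1 of them, 17 had 2 and 10 had all 3. All of Sst, Cort and Crhbp were detected together in 6 Fasn-R1812W and 4 WT wells, and with Npy as the fourth in 2 and 4 wells. Without Slc17a7 wells, Crhbp was in 12 of 19 Cort wells (63.2%), against 13.2% of the rest (difference 25.6 to 68.6 points), and Sst in 14 of 19 Cort wells (73.7%), against 38.2% (10.02 to 53.4 points). Npy was in 21 of 40 Sst wells (52.5%), against 25.5%, but in Fasn-R1812W alone in 7 of 17, against 9 of 26 (-20.8 to 34.0 points). The intervals for Npy with Cort and with Crhbp held 0 there: Npy was in 7 of 19 Cort wells (36.8%), against 38.2% of the rest (-22.7 to 23.1 points), and in 9 of 21 Crhbp wells (42.9%), against 36.4% (-15.5 to 29.6 points).

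Some single wells rich in Sst showed these combinations and others did not. The Fasn-R1812W well with the highest Sst level, 43553 CPM, had no Slc17a7 read and also had Npy, Cort, Tac1, Crhbp and Calb1 at 10 or more reads. The 2 Fasn-R1812W wells with more Sst reads had no Cort read: that at 33662 CPM of Sst had Npy and Crhbp. The other, at 27815 CPM, had Npy and Cck, with Crhbp below 10 reads. The WT well with the highest Sst level, 30282 CPM, also had Npy, Cort and Crhbp, and it carried 78.4 CPM of Slc17a7. That well and the WT well with the next most Sst reads, at 30.0 CPM of Slc17a7, are lost when Slc17a7 wells are left out.

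**Figure D2:**
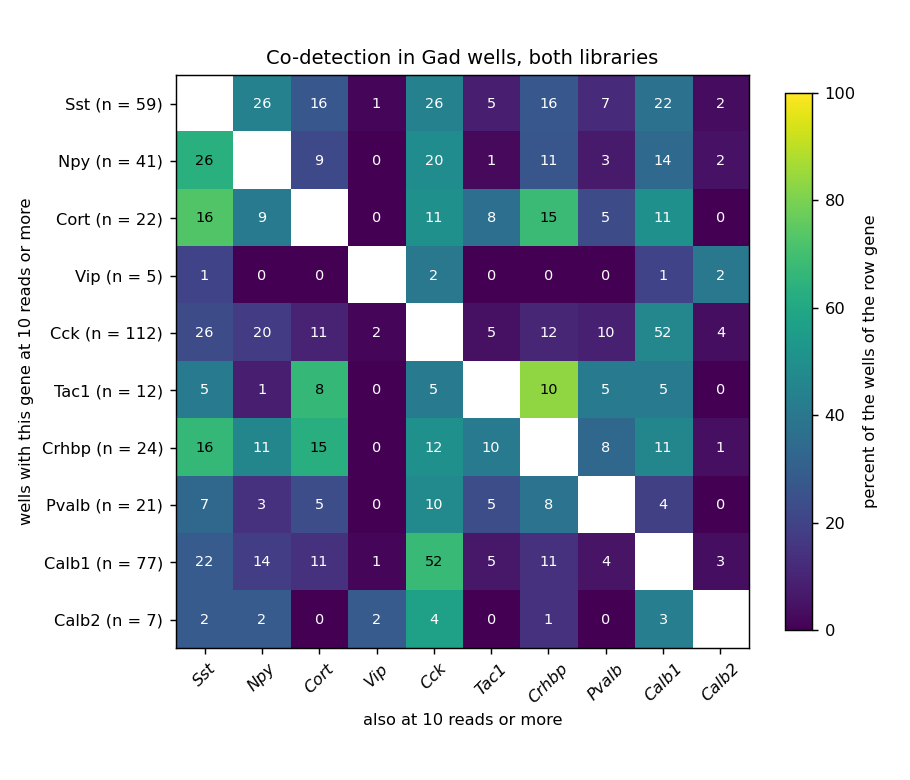
Wells with both genes at 10 or more reads, among the 196 Gad wells of both libraries: the number printed is the count of wells and the colour is that count as a percent of the wells of the row gene. The brightest cells are Tac1 with Crhbp (83.3%) and Cort with Sst (72.7%), and the row of Vip is brightest at Cck and Calb2, with 2 wells each.

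Tac1 went with Crhbp and Cort more than with Npy. Of its 12 wells, 10 in Fasn-R1812W and 2 in WT, Crhbp was detected in 10 (83.3%, 51.6 to 97.9), against 7.61% of the 184 wells without Tac1. Cort was in 8 of the 12 (66.7%) and Pvalb and Sst in 5 each (41.7%), whereas Npy was in 1. Pvalb shared 8 of its 21 wells with Crhbp (38.1%, against 9.14% of the 175 wells without Pvalb). It shared 7 with Sst (33.3%), against 29.7% of wells without Pvalb, and 4 with Calb1 (19.0%, against 41.7%, a difference of -22.7 points with an interval of -36.2 to -0.559). Without Slc17a7 wells, Crhbp was in 9 of 11 Tac1 wells (81.8%), against 15.8% of the rest (difference 34.9 to 80.6 points), and Cort in 7 of 11. The intervals of 3 other differences then held 0: Tac1 with Pvalb 19.3 points (-4.18 to 48.3), Pvalb with Crhbp 21.2 points (-1.18 to 45.3) and Pvalb with Calb1 -12.4 points (-28.6 to 12.9). Vip was found in no well with Npy, Cort, Tac1, Crhbp or Pvalb. With 5 Vip wells this is a count of few wells. Calb2 was found in 2 of the 5 Vip wells and in no well with Cort, Tac1 or Pvalb.

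Cck and Calb1 formed the most frequent pair, in 52 wells, which were 46.4% of 112 Cck wells and 67.5% of 77 Calb1 wells. Both genes moved with the glutamatergic marker: Slc17a7 was at 10 or more reads in 68.8% of Calb1 wells and 65.2% of Cck wells, against 13.6% of Cort wells and 12.5% of Crhbp wells. Prox1 was in 64.9% of Calb1 wells and 26.9% of Gad wells without Calb1, and without Slc17a7 wells in 20.8% and 19.0%. Without Slc17a7 wells, Calb1 was in 12 of 39 Cck wells and 12 of 48 wells without Cck. In Gad wells at large, Cck was less frequent in Sst wells (44.1%, 31.2 to 57.6) than in wells without Sst (62.8%, 54.1 to 70.9), a difference of -18.7 points (-32.9 to -3.56). The difference was -2.73 points (-25.2 to 19.3) in Fasn-R1812W and -29.9 points (-46.8 to -10.1) in WT, and -8.94 points (-28.4 to 11.7) without Slc17a7 wells.

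**Figure D3:**
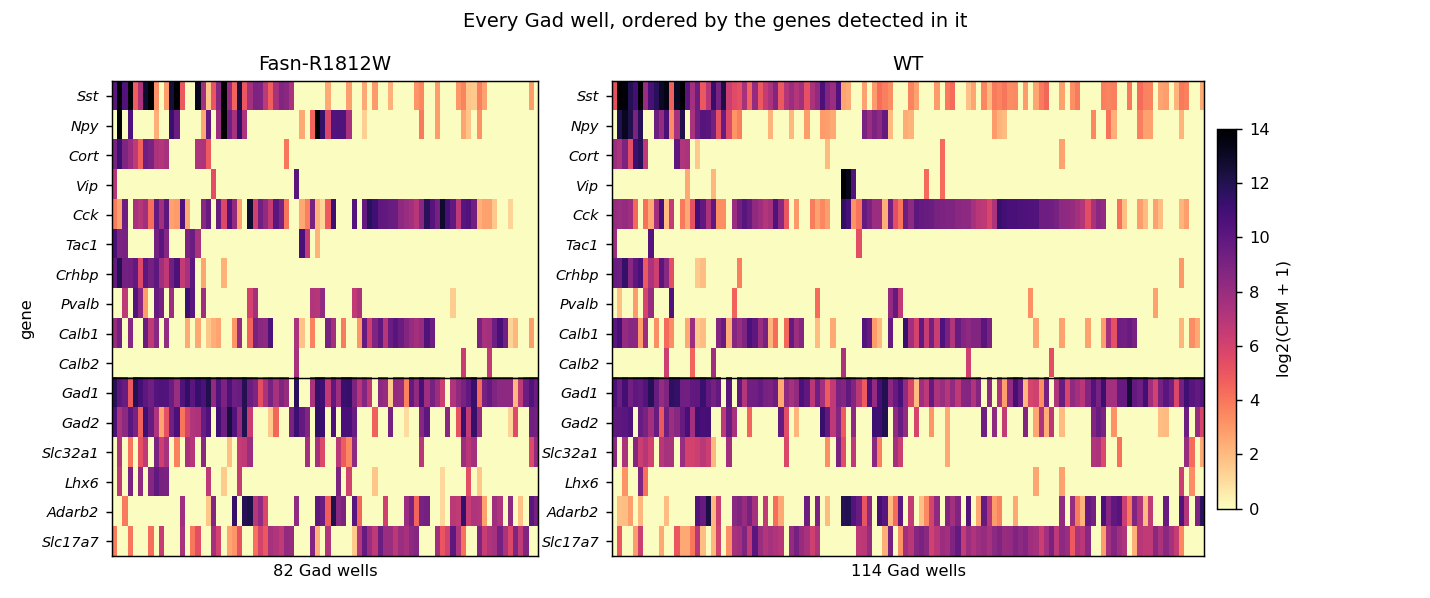
Every Gad well as a column, 82 of Fasn-R1812W on the left and 114 of WT on the right, coloured by log2(CPM + 1), with the members above the line and Gad1, Gad2, Slc32a1, Lhx6, Adarb2 and Slc17a7 below it. Wells rich in Cort and Crhbp, at the left of each panel, often hold Sst and have Adarb2 in none at 10 or more reads, and Slc17a7 is spread over the wells with Cck and Calb1.

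Genes that mark interneuron origins were read unevenly among these wells. Adarb2 reached 10 reads in 0 of 22 Cort, 0 of 24 Crhbp and 0 of 12 Tac1 wells, which allows shares of up to 13.6%, 12.5% and 25%, and in 16.9% of Sst wells, against 47.4% of Gad wells without Sst. Lhx6, a factor of interneurons from the medial ganglionic eminence, was in 36.4% of Cort wells and 29.2% of Crhbp wells, against 3.4% and 4.1% of the wells without them. Nxph1, a secreted ligand of neurexins, was in 77.3% of Cort wells and 14.4% of the rest. Elfn1, a synaptic adhesion protein of somatostatin interneurons, was in 28.8% of Sst wells, against 2.2% of the rest. Reln, the gene of the secreted protein reelin, was in 65.9% of Npy wells and 8.4% of the others. Lamp5, a marker of neurogliaform cells, was in 31.7% of Npy wells and 10.3% of the others. Kcnc1, which encodes a fast potassium channel, was in 12 of 12 Tac1 wells and in 57.1% of the other Gad wells. Erbb4, the neuregulin receptor of interneurons, was in 66.7% of Pvalb wells and 21.7% of the rest. Without Slc17a7 wells, Adarb2 was in 3 of 40 Sst wells, against 61.7% of the rest, and in none of the 19 Cort, 21 Crhbp and 11 Tac1 wells. It was, however, in 5 of 17 Pvalb wells (29.4%), against 38.6% of the rest (difference -29.1 to 16.8 points). Among Npy wells it was in 11 of 33 (33.3%), against 38.9% (-24.6 to 15.2 points). Nxph1 was in 84.2% of Cort wells there, against 35.3%, and Elfn1 in 14 of 40 Sst wells, against 6.38%. In Fasn-R1812W alone Elfn1 was in 9 of 17 Sst wells, against 1 of 26 (difference 22.5 to 70.2 points). In WT alone it was in 5 of 23, against 2 of 21, and that interval held 0 (-10.6 to 33.5 points). Reln was in 69.7% of Npy wells, against 22.2%, and Lamp5 in 33.3% of Npy wells, against 11.1%. Lhx6 was in 31.6% of Cort wells, against 8.82% (difference 4.15 to 45.7 points), and in 23.8% of Crhbp wells, against 10.6% (-3.17 to 35.2 points). These Lhx6 wells were all of Fasn-R1812W, at 6 of 12 Cort and 5 of 13 Crhbp wells. In WT it was in 0 of 7 Cort and 0 of 8 Crhbp wells, and in 1 of 37 and 1 of 36 of the rest. Kcnc1 and Erbb4 were common in wells of that kind at large. Kcnc1 was in 11 of 11 Tac1 wells and 77.6% of the rest (difference -4.70 to 32.9 points), and Erbb4 in 76.5% of Pvalb wells and 51.4% of the rest (-1.25 to 43.1 points). Erbb4 was less frequent with Sst, in 14 of 40 Sst wells, against 35 of 47 (-55.9 to -18.6 points). Lhx6, in 5 of 40, against 7 of 47, and Kcnc1, in 29 of 40, against 41 of 47, were no more frequent with Sst. The partner gene Satb1 was more frequent, in 22 of 40, against 15 of 47 (2.27 to 41.4 points). For Nxph1, in 22 of 40, against 18 of 47, and Sox6, in 8 of 40, against 5 of 47, the intervals held 0.

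Likeness over wells was measured among 9127 genes as the Pearson correlation of log levels across Gad wells, taken in each library, and ranked by the lower of both values. It is a description over 82 Fasn-R1812W and 114 WT wells that share a library and differ in depth. The genes most like Sst were Cort (0.513 in Fasn-R1812W, 0.520 in WT), Crhbp (0.506, 0.563) and Elfn1 (0.670, 0.430). Those most like Npy were Reln (0.562, 0.624), Maf (0.486, 0.50) and Nxph1 (0.530, 0.459). Cort and Crhbp were most like each other, at 0.721 and 0.621. Pvalb was nearest to Kcnab3 (0.490, 0.406), Coro6 (0.414, 0.396) and Syt2 (0.553, 0.395). Calb1 was nearest to Npnt (0.432, 0.410), Synpr (0.484, 0.373) and Ahcyl2 (0.357, 0.366). For Cck the nearest gene, Raver1, reached 0.272 and 0.271. Over the 43 Fasn-R1812W and 44 WT wells without Slc17a7, the values were 0.531 and 0.473 for Sst with Cort, 0.433 and 0.535 for Npy with Reln, 0.684 and 0.474 for Cort with Crhbp, and 0.579 and 0.689 for Pvalb with Syt2. Those of Calb1 with Npnt were 0.095 and 0.238, of Calb1 with Synpr 0.233 and 0.124, and of Npy with Maf 0.280 and 0.356. Npy with Nxph1 stood at 0.382 and 0.370, Sst with Elfn1 at 0.714 and 0.294, and Pvalb with Coro6 at 0.275 and 0.520.

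Outside the Gad wells, Cck and Calb1 were abundant. Wells were grouped by marker sets of hippocampal neurons. Cck stood at 1520 CPM in 68 Fasn-R1812W wells with CA1 pyramidal markers, of which 66 had 10 or more reads, and at 1498 CPM in 55 such WT wells, of which 54 did. It was lower in wells with granule cell markers, at 399 CPM in Fasn-R1812W and 322 CPM in WT. Calb1 ran the other way, with 551 CPM in granule-marker wells of Fasn-R1812W and 361 CPM in those of WT, and 112 and 116 CPM in CA1-marker wells. Calb1 in wells with subicular markers stood at 6.66 CPM in Fasn-R1812W, against 124 CPM in WT, where 58.5% of the reads came from 1 well. Over all other wells the log2 ratio of Fasn-R1812W over WT was 0.253 for Cck and -0.113 for Calb1, and 9.67% of genes were 2-fold apart there. Calb2 reached 10 reads in 1 of 10 Fasn-R1812W wells with mossy cell markers. The WT library had only 1 such well, with no Calb2 read.

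**Figure D4:**
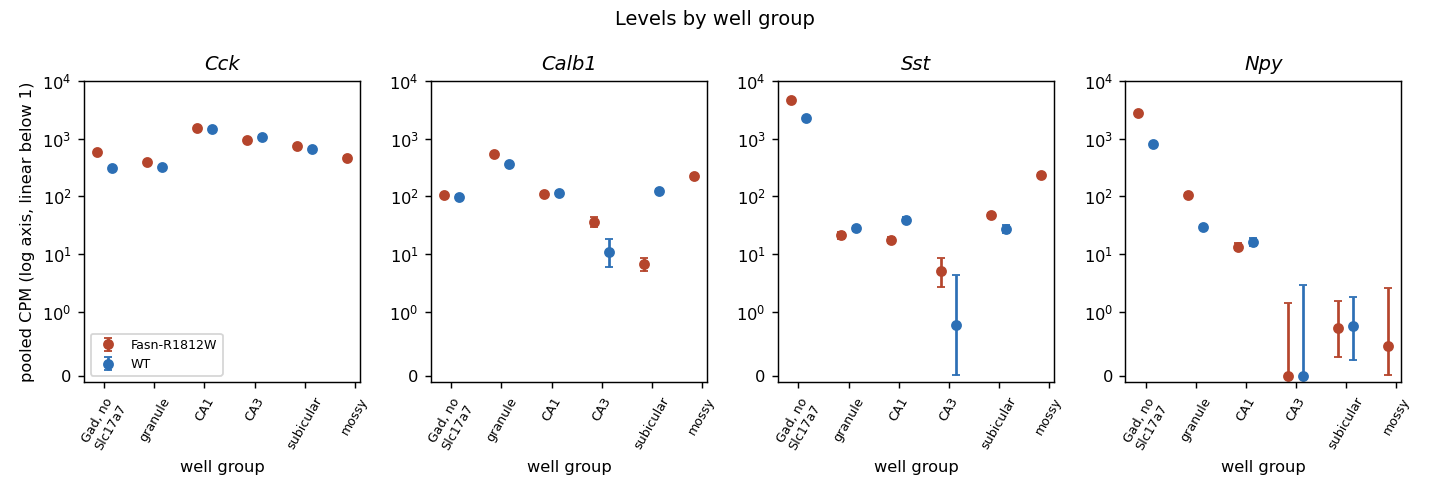
Pooled CPM of Cck, Calb1, Sst and Npy on an axis that is logarithmic above 1 and linear below it, in Gad wells without Slc17a7 and in other wells grouped by marker sets, with Fasn-R1812W left of WT and exact Poisson intervals of the counts; groups under 4 wells are not drawn. Cck is highest in CA1-marker wells and Calb1 in granule-marker wells, while Sst and Npy are highest in Gad wells.

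Low levels of Sst were widespread outside Gad wells. A read of it was found in 89 of 219 Fasn-R1812W and 127 of 200 WT other wells, and 10 or more reads in 23 and 31. These reads followed the plate indexes: each library used 24 indexes on one end and 16 on the other, so a well shares an index with others of its row or column. Among other wells sharing an index with the well that had most Sst reads, 20 of 23 in Fasn-R1812W and 22 of 22 in WT had an Sst read, at a median of 2 reads in both. Among those sharing none, 69 of 196 and 105 of 178 did. At 10 or more reads the shares were closer, at 3 of 23 and 20 of 196 in Fasn-R1812W, and 4 of 22 and 27 of 178 in WT. Npy in Fasn-R1812W showed the same, with a read in 16 of 22 wells sharing an index with its highest well and in 30 of 197 sharing none. A gene with under 10 reads in an unthinned well is therefore not counted as detected in the main shares and pairs. Pooled CPM, the ratios made from it and the correlations still include such reads. No other well of either library had Sst at 1000 CPM or more, against 11 Fasn-R1812W and 16 WT Gad wells.

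Between the genotypes, Npy, Tac1 and Pvalb were at least 2-fold higher and Vip at least 2-fold lower in Fasn-R1812W than in WT Gad wells, 4 of the 10 members. Of all genes that passed a filter on low levels, 20.6% were 2-fold apart, 10.3% in each direction. Of the members, 8 passed that filter and Vip and Calb2 did not, so that 3 of those 8 were 2-fold apart, all higher. Pooled Npy was 1255 CPM in Fasn-R1812W and 403 CPM in WT (log2 ratio 1.64, and 1.19 without the highest well of each library). Pooled Tac1 was 91.4 CPM in Fasn-R1812W and 11.7 CPM in WT (log2 ratio 2.87). Pooled Pvalb was 86.2 CPM in Fasn-R1812W and 27.9 CPM in WT (log2 ratio 1.59), and Vip was 5.10 CPM, against 216 CPM (log2 ratio -5.15). Fewer cells of a type and less RNA per cell cannot be told apart in such sums. The median log2 ratio was 0.490 over the 10 members, 0.737 over the 8 that passed the filter and 0.00315 over the 10859 genes that passed it. Among Gad wells without Slc17a7, Sst joined the members that were higher, at 4742 CPM in Fasn-R1812W and 2250 CPM in WT (log2 ratio 1.08), and Calb2 joined Vip among those that were lower. There 34.9% of genes that passed the filter were 2-fold apart, 16.8% higher and 18.1% lower. Of all 10 members 4 were higher and 2 lower, and of the 9 that passed 4 were higher and 1 lower, as Calb2 did not pass.

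The share of wells separated a gene read in more wells from one read deeply in a few. Tac1 was at 10 or more reads in 12.2% of Fasn-R1812W and 1.75% of WT Gad wells, a difference of 10.4 points (3.44 to 19.3). Pvalb was so in 18.3% of Fasn-R1812W and 5.26% of WT Gad wells, a difference of 13.0 points (4.06 to 23.2). Without Slc17a7 wells the differences were 16.4 points (2.15 to 31.0) for Tac1 and 16.5 points (-0.300 to 32.7) for Pvalb. These intervals take the wells of 1 library per genotype as units and cover counting error only, so they do not test genotype. Tac1 and Pvalb were the only members whose interval did not hold 0, as was the case for 7.17% of genes. That count of 2 became 1 without Slc17a7 wells, 1 at a detection threshold of 50 reads and 0 where both Gad1 and Gad2 were required. Npy, by contrast, was in 22.0% of Fasn-R1812W and 20.2% of WT Gad wells, a difference of 1.78 points (-9.46 to 13.7), and Vip in 2.44% and 2.63%. After every well was thinned to 50000 reads, the difference was 10.8 points (3.27 to 19.98) for Tac1, and that of Crhbp was 9.86 points with an interval that no longer held 0, which made 3 members, beside 7.2% of genes. Lhx6 differed between the genotypes in the same direction as Pvalb and Tac1, at 12 of 82 Fasn-R1812W and 2 of 114 WT Gad wells. Among Gad wells without Slc17a7 it was in 2 of 17 Pvalb wells and 10 of 70 others, and in 3 of 11 Tac1 wells and 9 of 76 others. The makeup of the Gad wells differed too, with Slc17a7 at 10 or more reads in 47.6% in Fasn-R1812W and 61.4% in WT. Summed oligodendrocyte markers stood at 641 CPM in Fasn-R1812W and 156 CPM in WT Gad wells, where 2 of the 5 markers were at 0, and astrocyte markers at 584 and 660 CPM. Their part in these ratios was not tested.

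**Figure D5:**
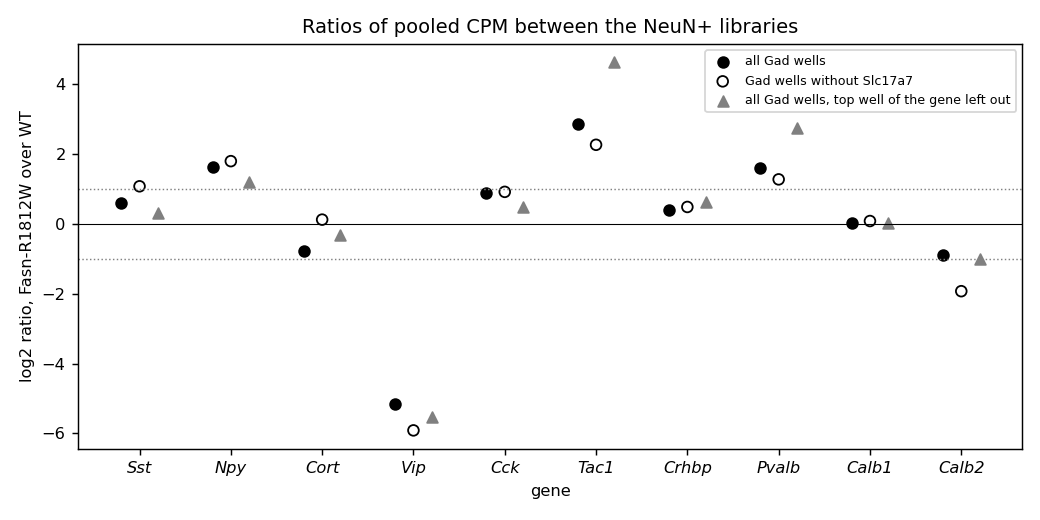
Log2 ratio of pooled CPM in Fasn-R1812W over WT for each gene, in all Gad wells, in Gad wells without Slc17a7 and in all Gad wells without the highest well of the gene in each library, with dotted lines at 2-fold. Npy, Tac1 and Pvalb lie above the upper line and Vip below the lower line in all 3.

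Sst, Cck, Crhbp and Calb1 were within 2-fold between the genotypes in Gad wells. Their log2 ratios were 0.593, 0.881, 0.388 and 0.0333. Cort, at 40.7 CPM in Fasn-R1812W and 71.1 CPM in WT, had a ratio of -0.789 although more Fasn-R1812W wells had it. In WT, 58.2% of its reads lay in 1 well. Without the highest well of each library its ratio was -0.31, and without Slc17a7 wells it turned to 0.121, at 86.8 CPM in Fasn-R1812W and 79.7 CPM in WT.

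The counts for related genes stand beside the 20.6% of all genes that were 2-fold apart. Of 16 genes of other peptides and peptide secretion, 9 passed the filter. Pnoc, the precursor of nociceptin, was higher at 38.0 CPM in Fasn-R1812W and 11.9 CPM in WT (log2 ratio 1.59). Grp, gastrin-releasing peptide, was lower at 10.8 CPM in Fasn-R1812W and 32.8 CPM in WT (-1.52). Of 13 receptors of these peptides, 5 passed and 0 were 2-fold apart. That 0 rests on single wells: the top Fasn-R1812W well of each gene held 88.8% of Vipr1, 73.3% of Cckbr and 71.2% of Npy2r reads. Without the highest well of each library their log2 ratios were -3.05, -1.51 and -2.21, past 2-fold lower. Npy1r and Npy5r stayed within 2-fold, at -0.334 and -0.342. Of 16 other calcium-binding genes, 15 passed. Necab3 was higher at 54.9 CPM in Fasn-R1812W and 13.7 CPM in WT (1.93). Hpcal1 was lower at 19.0 CPM in Fasn-R1812W and 45.2 CPM in WT (-1.21), as was S100b, an astrocyte gene, at 8.001 CPM in Fasn-R1812W and 19.5 CPM in WT (-1.19).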

How the data were processed

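Per well, the authors deposited raw counts of reads for each gene, as whole numbers. The submitters' processing notes name Trimmomatic 0.36, STAR 2.5.3a and build GRCm38.p5. How reads were assigned to genes and whether strand was used is not given in the sources used here, so reads of a gene and an antisense partner cannot be told apart. In the GENCODE annotation none of the 10 genes overlapped another gene. Each library had 384 wells, where 382 nuclei were stated, and 72468235 reads in Fasn-R1812W and 71221156 in WT. CPM were pooled counts over the pooled total of nuclear-encoded genes. The filter for counts of genes 2-fold apart was a pooled CPM of 10 and a read in 10% of wells in either library. Intervals are exact Poisson, Clopper-Pearson or Newcombe at 95%. Reads copied by PCR, without molecular identifiers, are not independent molecules. No doublet caller was run. The EdU+ libraries were not used. Both NeuN+ libraries used the same 384 index pairs. The members and lists, partner genes included, were chosen with earlier results of these data known. Named genes were the members, their partner list, list genes 2-fold apart and the 3 genes most like each member. Alternatives covered well filters, Gad rules, detection thresholds, thinning, scaling with edgeR 4.0.16 (TMM only), the prior and leaving out the highest well. Steps were tested on simulated data. Python 3.11.15, pandas 2.3.3, scipy 1.17.1 and R 4.3.3 were used.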

Additional observations from a re-analysis of the deposited data

How the results depend on the processing

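No paired analysis was possible because each genotype had 1 library, so that the groups share fewer than 2 replicate numbers. The difference in the share of Gad wells, -9.06 points, reversed to 1.13 points where both Gad1 and Gad2 were required and to 0.273 points without wells that had Slc17a7. The number of members 2-fold apart, 4, became 7 where both Gad genes were required. The share of all genes 2-fold apart was not counted under that rule, so this 7 has no background beside it. Without Slc17a7 wells that share was 34.9%, against 20.6% in all Gad wells. The median log2 ratio of the members, 0.490, was 0.182 with both Gad genes, 0.403 with a Gad gene at 50 reads, 0.700 without Slc17a7 wells, 0.649 without wells with glial markers, 0.723 from mean CPM per well, 0.391 without each gene's highest well and 0.723 after thinning. The median number of members per well fell to 1 in both libraries at 50 reads and to 1 in WT at 100 CPM. The number of members whose share interval held no 0, which was 2, became 0 with both Gad genes, 1 without Slc17a7 wells and 1 at a detection threshold of 50 reads. The cause of these shifts was not tested.

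The ratios of Npy (1.19 to 1.80), Tac1 (1.45 to 4.62), Pvalb (1.15 to 3.14) and Vip (-6.87 to -1.94) stayed past 2-fold in the same direction in 12 of 12 alternatives. With both Gad genes required, Cck (1.20) passed 2-fold upward and Calb1 (-1.24) and Cort (-1.08) downward. Cck passed also with a Gad gene at 50 reads (1.22) and without glial-marker wells (1.07), and Crhbp from mean CPM per well (1.03) and after thinning (1.08). The share of Cort wells with Crhbp ran between 63.2% and 90.0%, and that of Sst wells with Npy between 39.0% and 60.6%. Shares among Pvalb wells moved more, from 1 of 10 wells with Sst at 50 reads to 56.7% at 1 read, and with Cck between 30.0% and 93.3%. Cort turned upward in 2 of 12 alternatives. A detection rule against reads shared through plate indexes, over 1% of the reads of the most-read well sharing an index, was chosen after seeing the data and changed no call. With 82 and 114 wells, a gene in under 5 wells of a library gives only wide intervals.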
